A study of Mus musculus with 6 samples.

Results

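The prolactin receptor gene Prlr, the 4 Janus kinase genes Jak1, Jak2, Jak3 and Tyk2, and the STAT genes Stat3, Stat5a, Stat5b and Stat6 were followed through luminal progenitor cells of the virgin mouse mammary gland. These 9 genes were chosen by symbol from the 18537 gene rows of the normalized count table, and all 9 were among the 13692 genes abundant enough to test. The series held poly(A)+ RNA sequencing libraries of adult nulliparous mice, 3 labelled Robo1+/+ (gh03, gh09 and gh15) and 3 labelled Robo1-/- (gh06, gh12 and gh18). Per the labels, littermates came from crosses of Robo1+/- parents, each library pooled 2 animals, and the Robo1-/- mice carried the tm1Matl allele on both chromosomes in every tissue, so an effect within the progenitors and an effect from neighbouring cells cannot be told apart. Progenitors were sorted as Lin-CD24loCD29+CD61+ cells, that is, cells lacking markers of blood and vessel cells, low for CD24, and positive for CD29 and for CD61, the integrin that marks luminal progenitors. The study compared genotypes to learn what the guidance receptor ROBO1 does in alveolar progenitors.

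Prolactin is the pituitary hormone that drives growth of milk-producing alveoli in pregnancy. Its receptor has no kinase of its own and uses the kinase JAK2, bound to its inner tail, which phosphorylates the receptor and then the transcription factor STAT5. Phosphorylated STAT5 forms dimers, enters the nucleus and activates milk protein genes, while SOCS proteins, themselves STAT targets, feed back to quench the signal. The steps of activation are changes to proteins, which RNA levels do not measure.

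Robo1, the deleted gene, was compared with the labels. Its normalized read counts (reads divided by a size factor for each library) were 288.8, 573.7 and 541.3 in the Robo1+/+ libraries and 130, 214.4 and 176.6 in the Robo1-/- libraries. All the Robo1-/- values lay below all the Robo1+/+ values, though reads remained in every Robo1-/- library. Of all tested genes 9.41% did not overlap between genotypes. The difference of Robo1 was -1.39 on the log2 scale with a standard error of 0.36, adjusted p = 0.86 by limma over all tested genes.

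The libraries held 9727191 to 17433868 reads in genes, and 1 read was worth 0.784 to 1.46 normalized counts. The 9 genes had 45 to 39585 reads in a library, so counting error was small for all of them except Jak3 and Tyk2 in gh18. That library stood apart. Each library's deviation from the mean of the libraries, gh18 included, was set against the share of G and C bases (GC content) of the transcript. Over the 12453 tested genes with a known transcript sequence, that of gh18 ran against GC content, with a Spearman rho of -0.81. In the other libraries rho was 0.17 to 0.61. Since the mean includes gh18, its trend by itself pushes rho in the others upward. Results are therefore given with gh18, without it, and after a GC correction that subtracted this trend from each library. Nothing in the labels says that the libraries came from separate litters or sorts, so the tests measure the spread between these samples.

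GC content differed widely among the 9 transcripts, from 39.4% in Prlr to 60.7% in Jak3. To show what this means at the length of a sequencing read, the first stretch of 75 coding bases within 1 exon whose GC content came closest to that of its whole transcript is printed for 4 genes that span the range, in transcript orientation, with G and C in capitals. They were read from NCBI build 37 with GENCODE release M1. The Prlr stretch lies in exon 5 at chr15:10248947-10249021 on the plus strand and is 40.0% G and C. The Jak2 stretch lies in exon 3 at chr19:29336712-29336786 on the plus strand and is 44.0% G and C. The Stat5a stretch lies in exon 4 at chr11:100723102-100723176 on the plus strand and is 56.0% G and C. The Jak3 stretch lies in exon 2 at chr8:74202238-74202312 on the plus strand and is 61.3% G and C.
Prlr: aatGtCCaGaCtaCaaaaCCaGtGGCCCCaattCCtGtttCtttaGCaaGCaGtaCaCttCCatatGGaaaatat
Jak2: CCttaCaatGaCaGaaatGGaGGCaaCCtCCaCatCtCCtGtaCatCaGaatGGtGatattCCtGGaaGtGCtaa
Stat5a: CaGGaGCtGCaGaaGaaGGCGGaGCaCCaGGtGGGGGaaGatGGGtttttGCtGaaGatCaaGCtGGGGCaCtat
Jak3: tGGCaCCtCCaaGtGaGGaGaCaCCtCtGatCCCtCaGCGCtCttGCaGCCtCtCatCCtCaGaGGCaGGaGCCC

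Capitals thin out from the Jak3 stretch to the Prlr stretch. In Prlr the low GC content came mainly from outside the reading frame, since its 1827 coding bases were 46.8% G and C and its 8073 other bases 37.7%.

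Prlr (kgCluster8088, chr15:10106993-10303504, plus strand) encodes the hormone's receptor, in a long form and in short forms that splicing makes and that a count per gene does not separate. Its normalized read counts were 21166, 31025 and 20097 in the Robo1+/+ libraries. In the Robo1-/- libraries they were 36718, 26868 and 37136. The genotypes overlapped, because the Robo1+/+ library gh09 lay above the Robo1-/- library gh12, while gh06 and gh18 were the highest of all. The means were 24100 ± 6024 and 33570 ± 5811 (SD, n = 3 each), the Robo1-/- mean being 139% of the other. On the log2 scale the difference was 0.49 (95% interval -0.13 to 1.12), with adjusted p = 0.86 by limma and p = 0.2 by the two-sided exact permutation test, whose smallest possible p with 3 against 3 libraries is 0.1. It was 0.41 without gh18 and 0.13 after GC correction. In bulk RNA of a sorted population, more cells that carry the transcript and more transcript in each cell cannot be told apart.

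Among the kinases, Jak2 (kgCluster12690, chr19:29326318-29387570, plus strand), the kinase of the prolactin receptor, measured 2147.6, 2706.3 and 3023.4 in the Robo1+/+ libraries and 2327.1, 2213.2 and 4829.8 in the Robo1-/- libraries. A single library, gh18, set the Robo1-/- mean of 3123 ± 1479 above the Robo1+/+ mean of 2626 ± 443 (SD, n = 3 each), since gh06 and gh12 lay in the lower range of the Robo1+/+ values. The log2 difference was 0.17 with all libraries (95% interval -0.64 to 0.97), -0.20 without gh18 and -0.07 after GC correction, so its sign followed that library.

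Jak1 (kgCluster17637, chr4:100824972-100937887, minus strand) serves interferon receptors, the gp130 family and the receptors that share the common gamma chain. Its values were 3736.7, 4627.3 and 4955.9 in the Robo1+/+ libraries and 4473.6, 5004.3 and 5749.1 in the Robo1-/- libraries. The Robo1-/- range began within the Robo1+/+ range and ended above it. The difference was 0.20 on the log2 scale (95% interval -0.30 to 0.69), 0.10 without gh18 and 0.06 after GC correction.

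Jak3 (kgCluster25006, chr8:74200195-74214474, plus strand) is known mainly as the partner of the common gamma chain in lymphocytes. It measured 460.57, 610.54 and 585.36 in the Robo1+/+ libraries and 653.71, 432.37 and 65.66 in the Robo1-/- libraries. The highest and the lowest value of all therefore both belonged to Robo1-/- libraries. In gh18 the gene had 45 reads, with an exact 95% Poisson interval of 32.8 to 60.2 that covers counting error only. That interval corresponds to 47.9 to 87.8 normalized counts, far below the 394 to 474 of gh12, the next library up. The log2 difference of -1.04 (95% interval -2.93 to 0.85) came down to -0.04 without gh18 and to -0.14 after GC correction, and was -0.52 with DESeq2 and with edgeR.

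Tyk2 (kgCluster25876, chr9:20908521-20931790, minus strand), a kinase of interferon and interleukin-12 family receptors, had the same shape. Its values were 452.93, 545.49 and 536.58 in the Robo1+/+ libraries and 473.02, 463.52 and 151.75 in the Robo1-/- libraries. The library gh18 stood alone at 33.5% of the lowest of the others, while gh06 and gh12 lay inside the Robo1+/+ range. The log2 difference was -0.66 (95% interval -1.75 to 0.43), -0.12 without gh18 and -0.09 after GC correction.

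**Figure D1:**
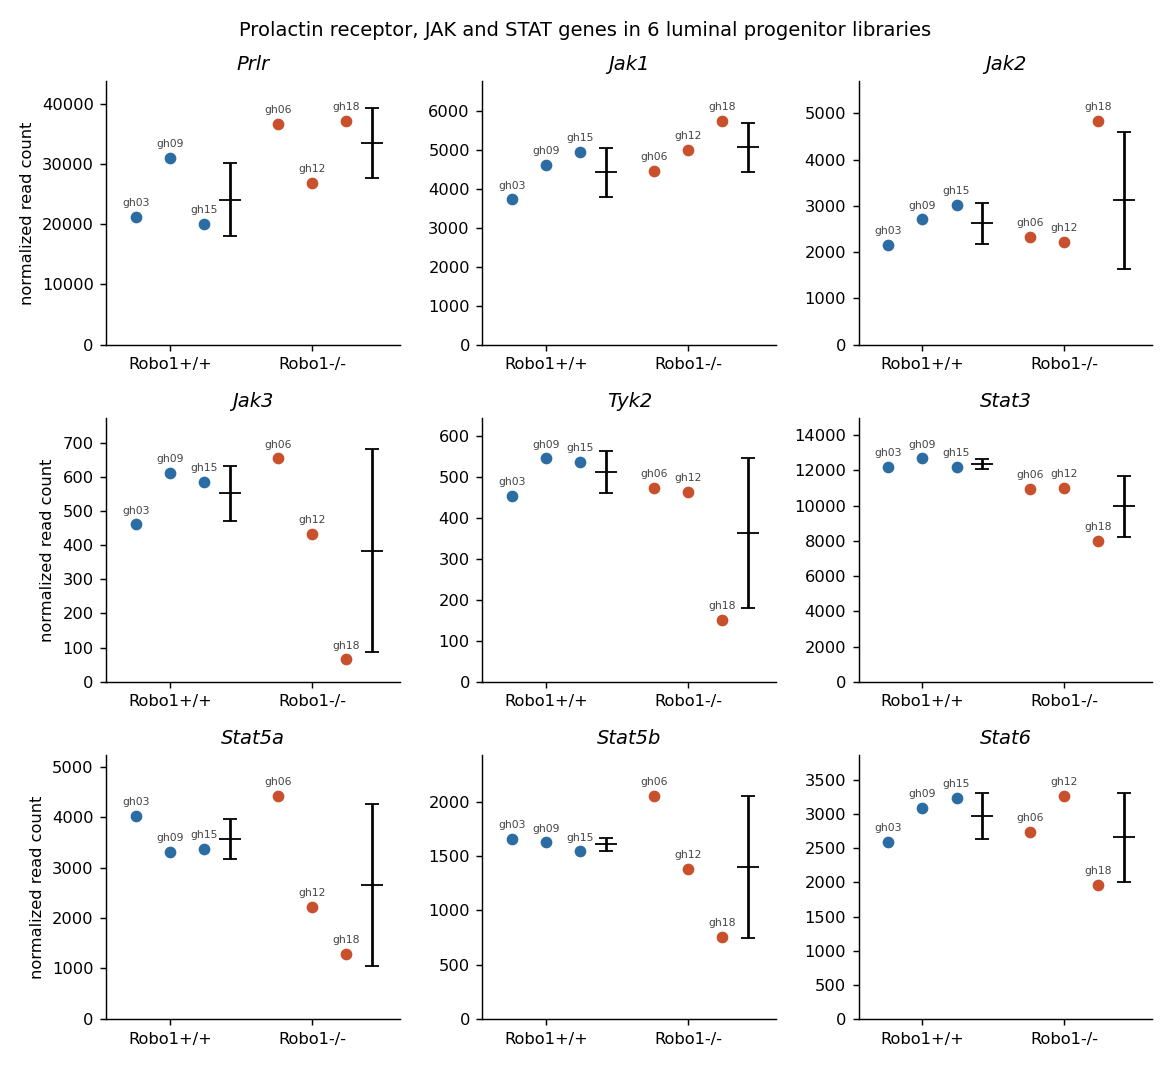
Normalized read count (y axis, linear, from 0, 1 scale per gene) of each of the 9 genes in each library, with the mean and SD of the 3 libraries of a genotype beside the points. Stat3 is the gene whose Robo1-/- points (7982 to 11003) all lie below its Robo1+/+ points (12217 to 12688). In Jak3, Tyk2, Stat5a and Stat5b the Robo1-/- mean is drawn down by gh18, and in Jak2 it is drawn up by it.

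Stat3 (kgCluster4286, chr11:100746412-100800854, minus strand), which acts downstream of gp130 receptors and is the STAT of involution after weaning, was the 1 gene of the 9 whose genotypes did not overlap. It measured 12217, 12688 and 12218 in the Robo1+/+ libraries and 10955, 11003 and 7981.6 in the Robo1-/- libraries. The Robo1+/+ values were close together, at 12370 ± 271.8 (SD, n = 3), and the Robo1-/- mean of 9980 ± 1731 (SD, n = 3) was 80.7% of theirs. The log2 difference was -0.33 (95% interval -0.82 to 0.17), with adjusted p = 0.86 by limma and p = 0.1 by the exact permutation test, the smallest it can give. Without gh18 it was -0.17 (95% interval -0.52 to 0.18).

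After GC correction the log2 values of Stat3 were 13.53, 13.51 and 13.50 in the Robo1+/+ libraries and 13.35, 13.34 and 13.29 in the Robo1-/- libraries. The genotypes were thus still apart, by -0.18 (95% interval -0.49 to 0.12). They did not overlap under any scaling, filter, pseudocount or left-out library tried. Among all tested genes, however, 9.41% did not overlap on the normalized values and 6.62% of those with a transcript sequence did not overlap after GC correction, so that 1 of 9 is near the background. With only 2 libraries on one side such separation is more common, at 20.2% of all tested genes without gh18.

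Stat5a (kgCluster4285, chr11:100720665-100746483, plus strand), the STAT5 gene most needed for alveolar differentiation, measured 4025.5, 3312.9 and 3365.8 in the Robo1+/+ libraries. In the Robo1-/- libraries it measured 4427.5, 2224.1 and 1294.3. The Robo1-/- values surrounded the Robo1+/+ values, with gh06 above all of them and gh12 and gh18 below. The log2 difference was -0.61 (95% interval -1.62 to 0.41), with p = 0.4 by the exact permutation test, and came to -0.18 without gh18, -0.16 after GC correction and -1.07 without gh06. The SD of the Robo1-/- values was 1609 against 397 in the Robo1+/+ libraries. After GC correction the spread was narrower, with log2 values of 11.82, 11.39 and 11.47 against 11.86, 10.96 and 11.37, and gh12 was then the low library.

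Stat5b (kgCluster4284, chr11:100642045-100712038, minus strand), its close paralog, known for growth hormone signalling in liver, followed a like order. It measured 1659.1, 1627.9 and 1545.0 in the Robo1+/+ libraries and 2060.1, 1384.1 and 754.39 in the Robo1-/- libraries. Here too gh06 was the highest library and gh18 the lowest. The log2 difference was -0.32 (95% interval -1.18 to 0.54), -0.16 after GC correction and 0.07 without gh18.

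Stat6 (kgCluster2727, chr10:127080042-127098013, plus strand) carries signals of interleukins 4 and 13, which also act on luminal cells in alveolar growth. Its values were 2596.7, 3098.2 and 3242.0 in the Robo1+/+ libraries and 2736.8, 3274.8 and 1967.0 in the Robo1-/- libraries. The library gh18 lay below all the others, and gh12 lay just above the Robo1+/+ range. The log2 difference was -0.19 (95% interval -0.77 to 0.39), 0.01 without gh18 and 0.05 after GC correction.

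None of the 9 genes passed the test across genes. With limma, 0 of 9 passed an adjusted p of 0.05, as did 0% of all tested genes, and 0 of 9 passed an unadjusted p of 0.05, against 1.69% of all tested genes (1.6% after GC correction and 4.2% without gh18). DESeq2 and edgeR on the recovered whole reads also called 0 of 9 at an unadjusted p of 0.05. The median log2 difference of the 9 genes was -0.32, with 6 of them lower in Robo1-/- libraries, where the median of all tested genes was 0. It was -0.09 after GC correction and -0.04 without gh18. Leaving out other libraries moved single genes past the unadjusted threshold. Prlr passed it, higher, without gh09, as did 1.26% of all genes tested there. Stat5a passed it, lower, without gh06, as did 6.44% of all genes tested there. The intervals are wide, that of Prlr reaching 1.12 and that of Jak3 -2.93 on the log2 scale, and do not show that the genotypes are alike.

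**Figure D2:**
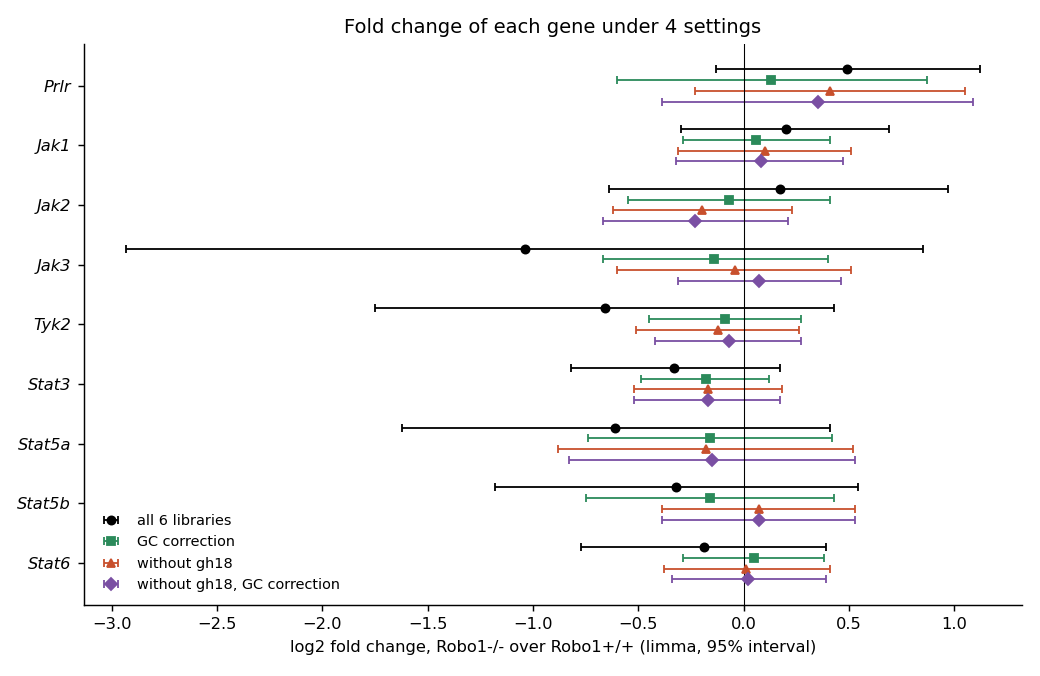
Log2 fold change of each gene, Robo1-/- over Robo1+/+ (x axis), with its 95% interval from limma, for all 6 libraries, after GC correction, without gh18, and with both. Every interval crosses 0. The points of Jak3 move from -1.04 to between -0.14 and 0.07, those of Jak2, Stat5b and Stat6 cross 0, and those of Stat3 stay between -0.33 and -0.17.

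The deviation of gh18 sorted the 9 genes almost exactly by base composition. Its log2 difference from the average over the remaining 5 libraries was 0.49 for Prlr, 0.97 for Jak2 and 0.34 for Jak1, the members with the lowest GC content. For Stat5a it was -1.38, for Tyk2 -1.69 and for Jak3 -3.02, the members with the highest. Across the 9 genes Spearman's rho was -0.97 and Pearson's r -0.91, given as a description, since the genes share the library. The curve fitted over all genes, read at the GC content of each member, gave 0.35 for Jak1, -1.25 for Stat5a and -1.58 for Tyk2, close to what was measured. Stat3 deviated by -0.56 where the curve gave -0.41, and Stat6 by -0.60 where it gave -0.67. The members farthest from their curve value were Stat5b, at -1.12 where the curve gave -0.45, and Jak3, at -3.02 where it gave -2.45. For Prlr the curve gave 0.93, above the measured 0.49, and after the correction gh18 was 0.44 below the mean of the others on the log2 scale. The origin of the trend was not tested.

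**Figure D3:**
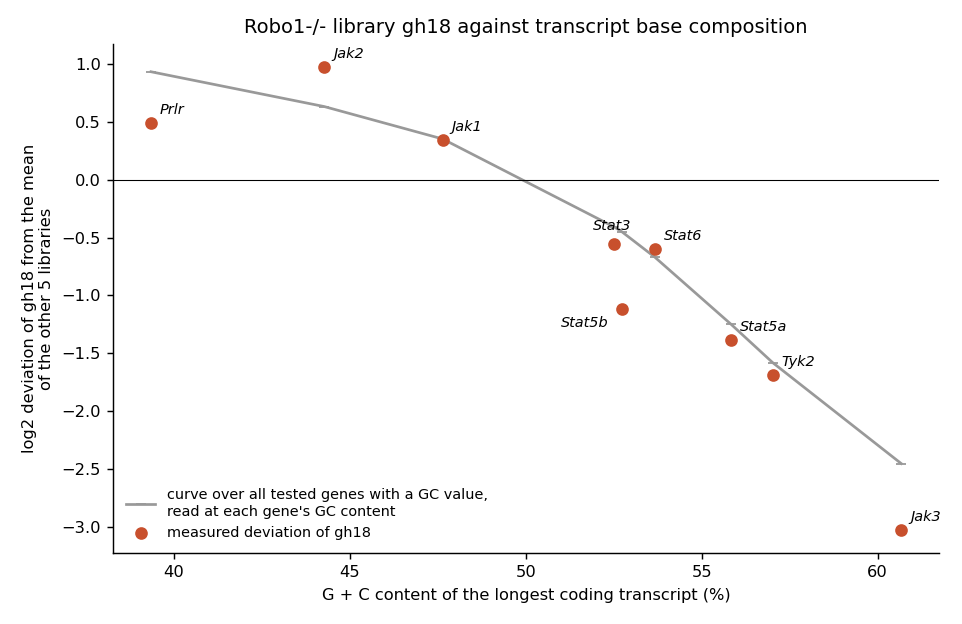
Log2 deviation of the Robo1-/- library gh18 from the average over the remaining 5 (y axis) against the GC content of the longest coding transcript in percent (x axis), 1 point per gene. The grey line joins the values of the curve over all tested genes at these GC contents. The points run from 0.97 for Jak2 and 0.49 for Prlr on the left to -3.02 for Jak3 on the right, along the line.

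Stat5a and Stat5b lie 8626 bases apart on chromosome 11 and are near copies of each other, and reads that match both are a further limit on their values. Among the 75-base windows of their longest coding transcripts, 387 occurred in both, which is 10.15% of the 3814 windows of Stat5a and 7.531% of the 5139 windows of Stat5b, while the other 7 genes shared no window with another gene. The longest identical run was 324 bases, at coding bases 571 to 894 of both, across 3 exons. Its middle exon is printed because a read from it has no base that tells the genes apart. In NCBI build 37 it is exon 8 of Stat5a, at chr11:100735653-100735804 on the plus strand, and exon 7 of Stat5b, at chr11:100659548-100659699 on the minus strand, and all 152 bases are the same in transcript orientation.
Stat5a exon 8 and Stat5b exon 7: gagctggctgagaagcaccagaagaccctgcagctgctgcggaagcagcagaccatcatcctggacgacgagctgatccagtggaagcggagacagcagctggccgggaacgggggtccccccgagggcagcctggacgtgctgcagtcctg

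The ratio of Stat5a to Stat5b values was 2.43, 2.04 and 2.18 in the Robo1+/+ libraries and 2.15, 1.61 and 1.72 in the Robo1-/- libraries. The genotypes overlapped at gh06, whose ratio lay between those of gh09 and gh15. The mean ratios were 2.21 ± 0.20 and 1.82 ± 0.29 (SD, n = 3 each). The log2 difference was -0.29, with p = 0.2 by the exact permutation test. It was 0.00 after GC correction with all libraries, but -0.25 without gh18 and -0.22 with both changes. At their other ends, Stat5a and Stat3 converge and overlap by 72 bases. The library kit does not mark strand, so reads from that overlap cannot be assigned to either gene by strand.

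Levels per length, in RPKM (reads scaled by the length of the longest coding transcript and by the reads in genes), set the 9 genes in order. Prlr was the most abundant, at 180 ± 42.7 in Robo1+/+ and 241 ± 40 in Robo1-/- libraries (SD, n = 3 each), and ranked between 159 and 359 of 15918 genes with a known length. Stat3 followed at 152 ± 1.53 and 118 ± 21.4. In the 3 Robo1+/+ libraries the ranges of Prlr and Stat3 overlapped, although Prlr was above Stat3 within each of the 6 libraries. Next came a group whose neighbours were not separate in the Robo1+/+ libraries. Stat5a was at 68.2 ± 8.21, Jak1 at 67.1 ± 9.28 and Stat6 at 58.5 ± 6.39 (SD, n = 3 each). Stat5a exceeded Jak1 in 2 of 6 libraries.

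In the Robo1+/+ libraries Jak2 stood below these, although in gh18 it was above Stat5a and Stat6. It was at 38.7 ± 6.44 in Robo1+/+ and 44.1 ± 20.4 in Robo1-/- libraries, and Stat5b at 22.9 ± 0.873 and 19.2 ± 8.99 (SD, n = 3 each). Jak3, at 9.86 ± 1.35, and Tyk2, at 8.23 ± 0.756, were the least abundant in the Robo1+/+ libraries and overlapped each other. Per length and without GC correction, the RNA of Prlr was thus at 3.38 to 8.02 times that of Jak2. The lowest ratio was in the Robo1+/+ library gh15 and the highest in the Robo1-/- library gh06. Within the JAK family, Jak1 made up 53.7% to 61.3% of the summed level in every library. Jak2 made up 26.4% to 32.2% except in gh18, where it was 44.0%. Among the 4 STAT genes studied, Stat3 held 44.5% to 56.9% of the summed level and Stat5a 14.4% to 28.0%, the latter range being set by gh18 and gh06.

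**Figure D4:**
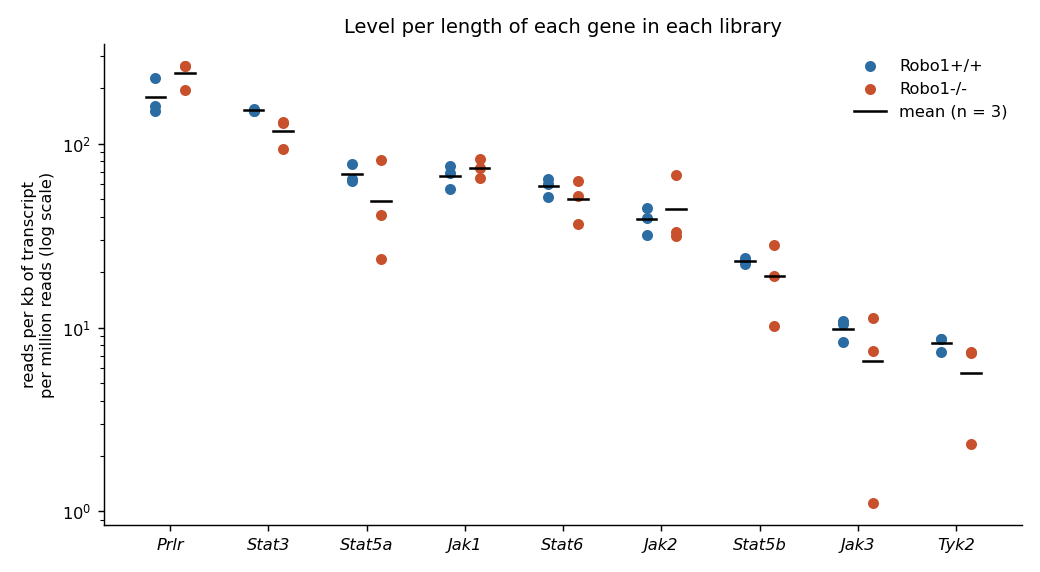
Level of each gene in RPKM, reads scaled by transcript length and library size (y axis, log scale), 1 point per library and a bar at the mean of each genotype (n = 3), ordered by the Robo1+/+ mean. Levels run from 180 for Prlr to 8.23 for Tyk2 in Robo1+/+ libraries, and the lowest points of Jak3 (1.11) and Tyk2 (2.32) are both from gh18.

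Stat2, a STAT of type I interferon signalling, measured 758.3, 1377 and 1447 in the Robo1+/+ libraries and 1192, 1367 and 723.7 in the Robo1-/- libraries, a log2 difference of -0.12 with adjusted p = 0.93 by limma. Its genotypes overlapped, with the lowest value in gh18. Stat4, a lymphocyte STAT, was low everywhere, at 11.0 to 63.6. Prolactin itself, Prl, was listed but matched no row of the normalized count table by symbol, so it has no value here.

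Other genes of the pathway came from lists of 75 genes, written with earlier results of these data known, of which 68 were tested. Of these 68, 5 passed an unadjusted p of 0.05 in limma, 3 higher and 2 lower in Robo1-/- libraries, a share of 7.35% beside 1.69% of all tested genes, and 0 passed an adjusted p of 0.05. Their median log2 difference was -0.10, with 40 of 68 lower, and was -0.02 after GC correction.

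Of 20 receptors that signal through JAKs, 15 were tested, none passed the unadjusted threshold, and their median difference was 0.03. Il4ra, the receptor chain through which interleukins 4 and 13 reach Stat6, measured 562.4, 746.1 and 804.9 in the Robo1+/+ libraries and 567.4, 363.7 and 134.2 in the Robo1-/- libraries. Its genotypes overlapped only through gh06, which lay just above gh03, and its log2 difference was -1.20 with a standard error of 0.52, or -0.78 with 0.25 after GC correction, when the genotypes no longer overlapped. Lifr, the receptor of leukaemia inhibitory factor, which signals to Stat3, was higher in all Robo1-/- libraries, at 1988, 1396 and 1411 against 585.2, 1202 and 1274. After GC correction its genotypes overlapped, with a log2 difference of 0.47. Genotypes did not overlap in 9.41% of all tested genes, or in 6.62% of those with a transcript sequence after GC correction. Ghr, the growth hormone receptor, which also uses JAK2, differed by 0.58, and by 0.26 after GC correction. Il2rg, the common gamma chain that Jak3 binds, was at 12.7 to 24.8 normalized counts throughout.

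Inhibitors of the pathway numbered 19, all tested, and 2 of them passed the unadjusted threshold, both lower, beside 1.69% of all tested genes. Cish and Socs1, feedback inhibitors induced by STAT5 and other STATs, differed by -1.36 and -1.61 on the log2 scale, each with no overlap between genotypes. Of all tested genes 9.41% did not overlap, and 6.62% of those with a transcript sequence after GC correction. Socs1 was low, at 20.64 to 35.27 normalized counts in the Robo1+/+ libraries. In the Robo1-/- libraries it was at 4.58 to 16.11, only a few reads in gh12 and gh18. After GC correction the log2 differences were -0.86 for Cish, still with no overlap, and -0.48 for Socs1, whose genotypes then overlapped. Pias4, a SUMO ligase that restrains STAT activity, differed by -1.33 with all libraries and by -0.12 without gh18. The median difference of the inhibitors was -0.08.

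Adaptors and parallel kinases of the receptor numbered 17, all tested, and 1 passed the unadjusted threshold, beside 1.69% of all tested genes. Irs1, a docking protein that prolactin, insulin and IGF1 receptors share, measured 720.1, 601.1 and 615.4 in the Robo1+/+ libraries and 1341, 786.9 and 1008 in the Robo1-/- libraries. All the Robo1-/- values were above all the Robo1+/+ values, where 9.41% of all tested genes did not overlap between genotypes. Its log2 difference was 0.67 with all libraries, 0.66 after GC correction and 0.67 without gh18, with adjusted p = 0.86 by limma. Its relative Irs2 differed by -1.05 and, after GC correction, by 0.09. Sh2b1, an adaptor that binds JAK2, differed by -0.60 and, without gh18, by -0.11.

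Of 15 genes listed as targets of prolactin and STAT5, 14 were tested and 2 passed the unadjusted threshold, both higher. Over all tested genes the share that passed was 1.69%. Csn3, which encodes kappa-casein, measured 7755, 8119 and 9771 in the Robo1+/+ libraries and 11380, 19140 and 16670 in the Robo1-/- libraries. Lalba, which encodes the alpha-lactalbumin needed for lactose synthesis, measured 1323, 1748 and 1367 in the Robo1+/+ libraries and 2568, 3119 and 2044 in the Robo1-/- libraries. Both separated the genotypes on normalized counts, with log2 differences of 0.85 for Csn3 and 0.79 for Lalba. Another 1 of the 14 targets did so on the lower side, though not after GC correction. The share of all tested genes that did not overlap was 9.41%. After GC correction Lalba stayed apart at 0.82, while Csn3 overlapped at 0.45.

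The other targets did not follow these 2 genes. Of the 14, 11 were lower in Robo1-/- libraries, with a median of -0.68 (-0.30 after GC correction and -0.38 without gh18). These figures take no account of whether STAT5 raises or lowers each gene. Csn2, the beta-casein gene, differed by -1.77 with a standard error of 1.24, its values ranging from 1139 to 13700 in the Robo1+/+ libraries and from 303.2 to 5456 in the Robo1-/- libraries. Without gh18 the difference of Csn2 was -2.96 and its genotypes did not overlap, as was so for 20.2% of all genes tested there. After GC correction with all libraries the difference of Csn2 was -2.05 with a standard error of 1.1, and its genotypes overlapped. Wnt4, a signal through which progesterone acts on neighbouring cells, differed by -2.60, and by -0.65 without gh18, in which it had 4.38 normalized counts. Elf5, the transcription factor of the alveolar lineage, differed by 0.08. Without gh18, 12 of the 68 listed genes passed the unadjusted threshold, 3 higher and 9 lower, which is 17.6% beside 4.2% of all tested genes. With GC correction as well, 13 passed, or 19.1% beside 4.44%. The lists were written with earlier results of these data known, so these shares are a description and not a test.

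The labelled cell type carried its markers. The summed normalized counts of 5 luminal progenitor markers (Kit, Itgb3, Elf5, Aldh1a3 and Cd14, none at 0) were 15740 to 19990 in the Robo1+/+ libraries and 16120 to 20600 in the Robo1-/- libraries. Markers of hormone-sensing luminal cells, the cells in which Prlr is known to be abundant, were also present, all 9 of 9 and none at 0. Their sums were 26130 to 30640 against 27720 to 37490, and the 2 highest were those of gh06 and gh12. Areg gave the largest part of each sum, at 11200 to 13730 against 13090 to 15050. Sums are not scaled by transcript length, so those of different cell types are not compared. Among the hormone-sensing markers Pgr, the progesterone receptor gene, was higher in all Robo1-/- libraries, at 5481, 4124 and 3752 against 1721, 3003 and 3394. Genotypes did not overlap in 9.41% of all tested genes. Over the 9 markers the median log2 difference was 0.19, with 3 lower in Robo1-/- libraries, namely Wnt4 at -2.60, Tnfsf11 at -2.94 and Cited1 at -1.01. The part of hormone-sensing cells in the Prlr values was not tested.

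Lymphocytes, which use Jak3 and Stat4, left little trace. Of 8 leukocyte markers, 5 were listed, and they summed to 19.7 to 31.8 normalized counts in the Robo1+/+ libraries and 11.9 to 30.6 in the Robo1-/- libraries, below the Jak3 value of every library. Ptprc, the gene of the pan-leukocyte antigen CD45, was at 0 in 4 of 6 libraries and at 0.94 and 1.46 in gh15 and gh18, the worth of 1 read. Basal markers summed to 666.2 to 2146 against 835.4 to 1484, fibroblast markers to 703.6 to 831.6 against 306.9 to 1039, endothelial markers to 42.2 to 75.2 against 27.7 to 90.7, and adipocyte markers, with 1 of 4 listed, to 2.54 to 3.92 against 1.46 to 3.66. None of these ranges separated the genotypes.

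Genes with the pattern most like that of Prlr or Stat5a were found by the Pearson r of GC-corrected log2 values over the 6 libraries. For Prlr they were Sec63 (0.990), Wdr25 (0.986) and Fgd4 (0.983), and 89 of 12452 genes exceeded 0.9. For Stat5a they were Armc5 (0.981), Timm9 (0.979) and Gfra2 (0.976), and 65 genes exceeded 0.9. With so few libraries many genes reach such values, and for some of them the likeness depended on the correction. On uncorrected values r with Prlr was 0.653 for Sec63, -0.0667 for Wdr25 and 0.769 for Fgd4, and r with Stat5a was 0.968 for Armc5, -0.0111 for Timm9 and 0.865 for Gfra2.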

How the data were processed

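The members and the gene lists were chosen with earlier results of these data known. The authors trimmed reads to 75×75 bases and discarded those that bowtie2 placed in repeats. TopHat aligned what remained to mouse build NCBI37/mm9, and DESeq2 scaled the counts (per the labels, Bowtie, TopHat, SAMtools and DESeq). The counting tool and its handling of strand and multiple matches are not given in the sources used here. The deposited values are a normalized signal, the reads of each known-gene cluster over the library's size factor. Whole reads were recovered from them (100% of values whole within 0.1 read).

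limma 3.58.1 (R 4.3.3, trended empirical Bayes) was run on log2(value + 1) of the 13692 genes kept by filterByExpr of edgeR 4.0.16 on the recovered reads, with Benjamini-Hochberg adjustment. Fold changes on this scale understate changes of low genes. Single genes and the Stat5 ratio were tested by two-sided exact permutation over libraries. Alternatives were DESeq2 1.42.0 and edgeR on recovered reads, upper-quartile and TMM scaling, pseudocounts of 0.5 and 5, filters keeping every gene with a read or those averaging 10 or more, a GC correction (lowess curve of each library's deviation on transcript GC, span 0.3), each library left out, and gh18 left out with the correction. The fits were tested on simulated data.

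Coordinates and GC content came from GENCODE M1 by symbol. Genes named are the 9 members, Robo1, and of each pathway list up to 3 with the smallest limma p, with Cish, Csn2, Elf5, Il4ra, Il2rg, Stat2 and Stat4, and the 3 genes most like Prlr and Stat5a. Areg, Pgr, Cited1 and Tnfsf11 were named after their values were seen. Intervals on reads cover counting error only, since reads are not independent molecules. One item that this rule names is not reported here.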

Additional observations from a re-analysis of the deposited data

How the results depend on the processing

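Scaling, filter, pseudocount and count models (DESeq2 and edgeR) left the direction of all 9 members and their side of both thresholds as reported. The count models gave smaller differences for Jak3 (-0.52 with both), Stat5b (-0.20 with DESeq2, -0.21 with edgeR) and the members' median (-0.20 and -0.21), and edgeR did not call Cish. GC correction and leaving out gh18 also left all 9 members on their side of both thresholds, but changed the direction of some of them. The log2 difference of Jak2 (0.17) was -0.0713 with GC correction, -0.196 without gh18 and -0.233 with both, and that of Stat6 (-0.19) was 0.0455, 0.0136 and 0.0237. Stat5b (-0.32) was 0.0688 without gh18 and 0.0712 with both, and Jak3 (-1.04) was 0.0727 with both. The genotype difference of the log2 Stat5a to Stat5b ratio (-0.29) was 0.000735 with GC correction, but -0.248 without gh18 and -0.22 with both. With both changes the members' median was 0.0237 and 13 listed genes passed the unadjusted threshold (19.1% beside 4.44% of all genes). The cause of these shifts was not tested.

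Leaving out each library in turn gave 0 to 1 members past an unadjusted p of 0.05 and 1 to 5 members whose genotypes did not overlap, where 0.847% to 6.44% of all genes passed and 14% to 30.1% did not overlap, the most without gh06. The 5, without gh06, were Jak1, higher, and Jak3, Stat3, Stat5a and Stat5b, lower. Without gh09, and without gh12, Prlr was apart and higher, and without gh03 Tyk2 was apart and lower. Listed genes past that p numbered 2 (2.94%) to 12 (17.6%), the members' median ran from -0.401 to -0.0437, Jak2 from -0.196 to 0.367, Stat5b from -0.655 to 0.0688 and Stat6 from -0.354 to 0.0136. No paired analysis was run, because the genotypes share no replicate number. Whether libraries were paired by litter or sort cannot be told from the replicate names. Among the members, depth limits only Jak3 and Tyk2 in gh18, and splice forms of Prlr are not resolved.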
